A study of Mus musculus with 8 samples.

Results

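The secreted vascular and lymphatic growth factors described here are 10 genes, chosen by symbol from a table of 17968 symbols: Vegfa, Vegfb, Vegfc, Pgf, Angpt1, Angpt2, Angpt4, Ccbe1, Adm and Angptl2. Each of the 10 was listed once and had enough reads to be tested. The RNA came from sorted adipose-derived stem cells, which are progenitors able to form new fat cells, taken from white fat after collagenase digestion and sequenced in bulk. All mice were male, wild-type C57BL/6J and on chow, and the sources used here do not give their age, the number of animals per library or the antigens used to gate the sort. Each of 3 depots had 2 libraries: SWAT is the inguinal depot under the skin, EWAT the depot along the epididymis and NWAT the depot around the kidney. Mesenteric fat is not analysed here. Nothing in the labels shows that the libraries of a depot came from different mice, so each p-value reflects the spread between these libraries, which may be technical.

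Fat expands and shrinks together with its vessels, and its progenitors secrete factors that act on nearby endothelium. VEGF-A drives blood vessel growth through the receptors FLT1 and KDR, and VEGF-B and placental growth factor (Pgf) bind FLT1. VEGF-C drives lymphatic growth through FLT4 after the protease ADAMTS3, held by the secreted scaffold CCBE1, has cut its precursor. Angiopoietins act on the receptor TEK (TIE2), where angiopoietin-1 is an agonist that quiets vessels and angiopoietin-2 acts mostly as its antagonist. Adrenomedullin (Adm) is a vasodilating peptide that signals through CALCRL with RAMP2 and acts on lymphatic and blood vessels, and ANGPTL2 is an angiopoietin-like secreted protein tied to inflammation of fat.

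Libraries held 20026413 to 20638724 estimated read counts. The 8 markers of adipose stem cells, such as Pdgfra, Cd34, Ly6a and Dcn, summed to 15200 to 19900 CPM (read counts scaled to a common library size with TMM factors), whereas 8 blood endothelial markers summed to 13.9 to 25.7 CPM and 6 lymphatic endothelial markers to 3.32 to 7.1 CPM. Mural markers summed to 55.8 to 75.2 CPM in SWAT, 154 to 157 in EWAT and 39.3 to 44.8 in NWAT, and mesothelial markers to 3.51 to 4.11, 160 to 169 and 118 to 146 CPM. Differences between depots were tested with edgeR's quasi-likelihood model over 13694 genes, with a Benjamini-Hochberg adjusted p under 0.05 as the threshold. Dcn gave the largest part of the stem cell sum, with mean CPM of 15140 (EWAT), 9200 (NWAT) and 8392 (SWAT). Of these 8 markers, 4 were higher and 2 lower in SWAT against EWAT, or 75% against 36.7% of all genes tested. In SWAT against NWAT 1 was higher and 2 lower (37.5% against 18.9%). In EWAT against NWAT 1 was higher and 5 lower (75% against 27.3%). Pi16 and Dpp4, chosen after their values were seen, were lowest in EWAT, where the sum was highest. Their mean CPM were 592 and 232 (EWAT), 1930 and 490 (SWAT), and 3363 and 691 (NWAT). The sum therefore hides differences between depots in the stem cell markers. Fold changes depend on the scaling. In the deposited FPKM (fragments scaled to gene length and library size), the log2 differences of all tested genes were shifted, relative to the counts, by a median of -0.215 (SWAT minus EWAT), -0.173 (SWAT minus NWAT) and 0.041 (EWAT minus NWAT). On that scale 20.1% and 20.5% of calls in SWAT against EWAT and NWAT were higher in SWAT, against 49.1% and 48% from the counts.

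RefSeq promoter windows on GRCm38.p6 were found for 7 of the 10 genes. The 250 bases before the start are shown for Vegfc and Angpt4, the genes with the largest pairwise differences among those 7, and for Vegfa and Adm, textbook targets of hypoxia-inducible factors. Capitals mark the core letters of a hypoxia response element, ACGTG or GCGTG, searched on both strands, where matches may overlap.
Vegfa, chr17:46032378-46032627, minus strand: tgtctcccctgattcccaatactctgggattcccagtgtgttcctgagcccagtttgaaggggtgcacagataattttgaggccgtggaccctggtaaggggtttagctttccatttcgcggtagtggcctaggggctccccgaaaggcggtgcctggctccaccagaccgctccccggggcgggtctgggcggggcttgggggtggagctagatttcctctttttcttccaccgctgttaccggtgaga
Vegfc, chr8:54077282-54077531, plus strand: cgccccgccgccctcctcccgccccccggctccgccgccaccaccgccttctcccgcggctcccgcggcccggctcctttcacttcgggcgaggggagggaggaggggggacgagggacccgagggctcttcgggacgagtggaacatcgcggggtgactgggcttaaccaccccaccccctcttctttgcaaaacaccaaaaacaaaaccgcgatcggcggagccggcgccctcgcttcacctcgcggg
Angpt4, chr2:151910957-151911206, plus strand: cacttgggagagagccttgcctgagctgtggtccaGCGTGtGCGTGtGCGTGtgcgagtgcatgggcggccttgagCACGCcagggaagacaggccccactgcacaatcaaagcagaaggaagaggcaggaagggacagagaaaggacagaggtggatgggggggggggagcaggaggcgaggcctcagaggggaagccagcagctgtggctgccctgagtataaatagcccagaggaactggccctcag
Adm, chr7:110627407-110627656, plus strand: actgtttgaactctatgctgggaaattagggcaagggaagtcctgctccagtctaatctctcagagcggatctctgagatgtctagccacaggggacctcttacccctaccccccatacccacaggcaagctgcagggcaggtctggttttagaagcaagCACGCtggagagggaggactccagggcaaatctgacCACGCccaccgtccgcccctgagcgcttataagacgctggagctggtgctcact
The window of Angpt4 held 4 matches to GCGTG and that of Adm 2, while those shown for Vegfa and Vegfc held 0 of either form. A second RefSeq window of Vegfa, chr17:46025164-46025413, starts inside the gene and is not shown, and it held 1 match to ACGTG and 1 to GCGTG. Bases outside such windows, such as those farther upstream, were not searched. At least 1 match to either form was present in 38.6% of 32851 RefSeq windows of this length, so a match is common and describes the letters only. The GC box GGGCGG occurred 2 times each for Vegfa and Vegfc and 1 time each for Angpt4 and Adm, and in 32.7% of windows.

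Every one of the 10 factors passed the joint test of the 3 depots, as did 41.7% of all genes tested. Between SWAT and EWAT 8 of the 10 passed, 5 higher and 3 lower in SWAT, against 36.7% of genes (18% higher and 18.7% lower). Between SWAT and NWAT 8 passed, 6 higher and 2 lower in SWAT, against 18.9% (9.07% and 9.83%). Between EWAT and NWAT 9 passed, 6 higher and 3 lower in EWAT, against 27.3% (13.3% and 14%). The median absolute log2 fold change of the 10 was 0.90, 0.68 and 1.35 in these comparisons, and that of all genes tested was 0.32, 0.22 and 0.28. All 3 pairs passed for 6 of the 10 genes, against 5.41% of all genes tested. Vegfa, Angpt1, Angpt2 and Angptl2 were higher in SWAT than in both other depots (4 of 10, against 6.21% of genes), and Ccbe1 and Adm were lower there (2 of 10, against 5.88%). EWAT had the highest Vegfc and Ccbe1 (2 of 10, against 9.02%) and the lowest Vegfa, Vegfb and Angptl2 (3 of 10, against 8.57%). NWAT had the lowest Vegfc, Angpt1, Angpt2 and Angpt4 (4 of 10, against 2.35%), and 0 of the 10 were highest there, against 3.42%. The 10 genes were chosen with earlier results of these data known, so these shares describe them and do not test for an excess. The libraries of a pair of depots did not overlap for 8, 9 and 9 of the 10 genes in the order of comparisons above, against 70%, 63.1% and 65.5% of all genes, so that property is common here.

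**Figure D1:**
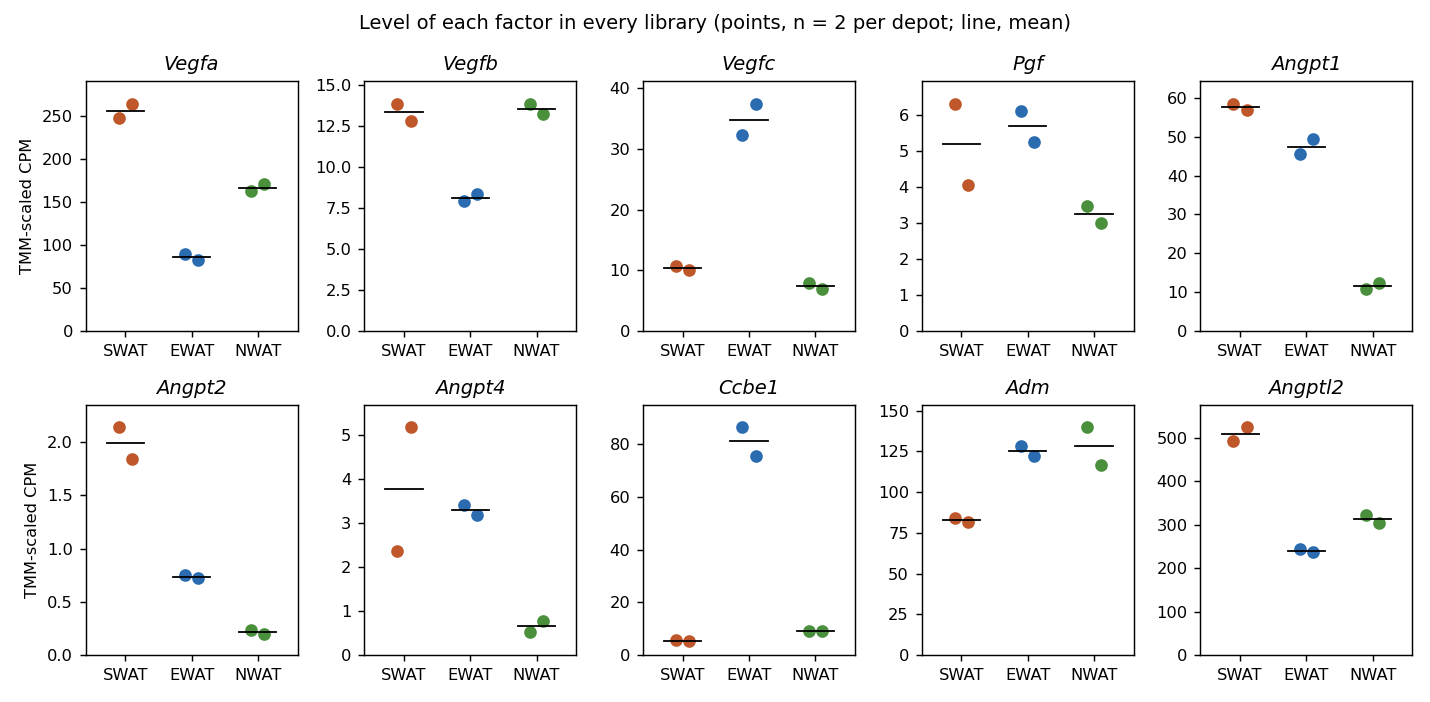
Each panel plots 1 gene in TMM-scaled CPM on a linear axis from 0, with a point for each of the 2 libraries of SWAT, EWAT and NWAT and a line at their mean. Vegfc and Ccbe1 were highest in EWAT (34.8 and 81 CPM), and all 3 angiopoietin genes were lowest in NWAT.

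Vegfa differed between each pair of depots and was highest in SWAT. It is a protein-coding gene on chromosome 17 (46016993 to 46032377, minus strand). Its levels were 248 and 265 CPM in SWAT, 89.4 and 82.4 in EWAT and 163 and 171 in NWAT, and no 2 depots overlapped. The log2 fold change was 1.58 ± 0.11 (SE) for SWAT against EWAT, or 2.99-fold (edgeR adjusted p = 4.61e-07), and 0.62 ± 0.10 against NWAT, or 1.54-fold (edgeR adjusted p = 0.00138). EWAT was also below NWAT, by -0.96 ± 0.11 (edgeR adjusted p = 4.55e-05). In bulk RNA, fewer expressing cells and less RNA per cell cannot be told apart. Reads were counted per gene, so the splice forms of Vegfa that differ in matrix binding were not resolved.

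Vegfb, a factor linked to fatty acid handling in endothelium, was lowest in EWAT. The gene lies on chromosome 19 (6982472 to 6987651, minus strand). It stood at 13.9 and 12.8 CPM in SWAT, 7.94 and 8.36 in EWAT and 13.8 and 13.3 in NWAT. SWAT exceeded EWAT by 0.71 ± 0.13 on the log2 scale (edgeR adjusted p = 0.00138), and NWAT exceeded EWAT by a similar step, written as -0.73 ± 0.13 for EWAT against NWAT (edgeR adjusted p = 0.00144). SWAT and NWAT overlapped, with a log2 difference of -0.02 and a 95% interval of -0.30 to 0.25.

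Pgf was the scarcest VEGF-family ligand measured here and rested on few reads. This gene (chromosome 12, 85166637 to 85177785, minus strand) had 6.31 and 4.06 CPM in SWAT, 6.12 and 5.26 in EWAT and 3.48 and 3.01 in NWAT, from 62 to 131 reads per library. EWAT was above NWAT by 0.81 ± 0.24 (edgeR adjusted p = 0.0257). That call was lost without EWAT replicate 1 (0.70), NWAT replicate 1 (0.92) or NWAT replicate 2 (0.71). The difference of SWAT from NWAT was 0.67 ± 0.24 (edgeR adjusted p = 0.0767), and it passed without SWAT replicate 2 (0.96, adjusted p = 0.0318) and with the replicate number as a block (0.659, adjusted p = 0.0498). SWAT and EWAT overlapped, with an interval of -0.64 to 0.37.

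Vegfc ran opposite to Vegfa between SWAT and EWAT. The gene spans chromosome 8 from 54077532 to 54186454 on the plus strand. Its levels were 10.8 and 10 CPM in SWAT, 32.2 and 37.4 in EWAT and 8.02 and 6.89 in NWAT, so both EWAT libraries lay above the other 4. EWAT exceeded NWAT by 2.22 ± 0.13, or 4.67-fold (edgeR adjusted p = 4.57e-07), and SWAT was below EWAT by -1.75 ± 0.13, or 3.35-fold (edgeR adjusted p = 1.11e-06). The smaller difference of SWAT from NWAT, 0.48 ± 0.14 (edgeR adjusted p = 0.0366), was lost without SWAT replicate 1 (0.43), SWAT replicate 2 (0.53), NWAT replicate 1 (0.59) or NWAT replicate 2 (0.38). It was also lost in DESeq2 (0.49) and on log2(FPKM + 1) values, where it was 0.24, or 0.38 relative to the median gene.

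Together with Vegfd, the other lymphatic VEGF ligand, these genes gave a VEGF-family total of 154 to 165 FPKM in every library, with a different makeup by depot. The even total depends on the scale, since the same 5 genes summed to 426 and 436 CPM in SWAT, 306 and 300 in EWAT and 355 and 342 in NWAT with TMM scaling. On the FPKM scale, which divides by gene length, Vegfa, Vegfb, Vegfc, Vegfd and Pgf summed to 158 and 164 in SWAT, 155 and 158 in EWAT and 165 and 154 in NWAT. Vegfa made up 41.8% and 44.7% of that sum in SWAT, 18.5% and 17.5% in EWAT and 31% and 34.3% in NWAT. Vegfc made up 3.24% and 3% in SWAT, 11.7% and 13.7% in EWAT and 2.69% and 2.45% in NWAT. The ratio of Vegfa to Vegfc within a library, which no library scaling touches, was 12.9 and 14.9 in SWAT, 1.58 and 1.28 in EWAT and 11.5 and 14 in NWAT. Vegfd itself, the most abundant of the 5 by FPKM in every library, with Vegfa at 0.997 of its level in SWAT replicate 2, did not pass in any pair. Its FPKM were 73.2 and 73.6 in SWAT, 97.1 and 97.7 in EWAT and 95.7 and 84.5 in NWAT, and its log2 fold change from the counts was -0.21 ± 0.10 for SWAT against EWAT (edgeR adjusted p = 0.141).

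**Figure D2:**
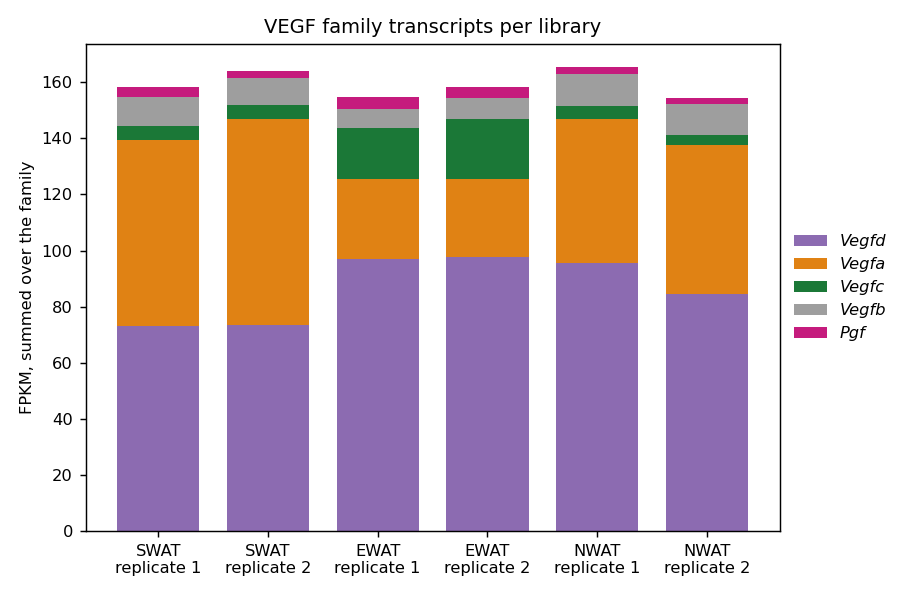
Stacked bars give the FPKM of the 5 VEGF-family genes in each of the 6 libraries, on a linear axis from 0. The bars reach 154 to 165 FPKM in all depots, and in EWAT the Vegfa part is smaller (27.6 and 28.6 FPKM) and the Vegfc part larger (18.1 and 21.6 FPKM) than in the other depots.

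Ccbe1, the scaffold that brings ADAMTS3 to VEGF-C, had the largest difference of the 10 genes in both comparisons with EWAT and, like Vegfc, was highest in that depot. It stood at 5.54 and 5.17 CPM in SWAT, 86.4 and 75.7 in EWAT and 9.26 and 8.93 in NWAT. The level in SWAT was below EWAT by -3.92 ± 0.13 on the log2 scale, or 15.1-fold (edgeR adjusted p = 1.78e-09), and EWAT was above NWAT by 3.15 ± 0.12, or 8.91-fold (edgeR adjusted p = 3.88e-08). NWAT was also above SWAT, with -0.76 ± 0.14 for SWAT against NWAT (edgeR adjusted p = 0.00229). In GENCODE M21, 320 exon bases of Ccbe1 are shared with the antisense gene Gm15958, and since the strand setting of the counting is not given in the sources used here, reads of the pair cannot be told apart.

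The protease gene of the same step, Adamts3, followed the same order of depots. It had 2.19 and 2.22 CPM in SWAT, 11.3 and 11.2 in EWAT and 5.34 and 5.87 in NWAT, and it differed between SWAT and EWAT by -2.35 ± 0.18 (edgeR adjusted p = 1.21e-06) and between EWAT and NWAT by 1.01 ± 0.16 (edgeR adjusted p = 5.99e-04). Adamts14, which codes for a related protease and was chosen after its values were seen, had 93.1 and 92.1 CPM in SWAT, 62.5 and 60.5 in EWAT and 72.3 and 71.1 in NWAT. The receptor gene of this axis, Flt4, stayed at or under 0.24 FPKM in every library, and the defining lymphatic markers Prox1 and Lyve1 stayed at or under 3.54 CPM.

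Markers of other cell types differed between the same depots. Between SWAT and EWAT, the mural and mesothelial lists held calls in both directions. The macrophage and leukocyte list and the adipocyte list held calls in 1 direction only. All 8 mural markers passed the joint test, as did 41.7% of all genes tested. Of the 8 markers, 5 were lower and 3 higher in SWAT than in EWAT, or 100% against 36.7% of all genes tested. Des, the muscle intermediate filament gene, made up most of the EWAT sum, at 90.9 and 95.8 CPM in EWAT, 6.09 and 4.17 in SWAT and 16.9 and 15.5 in NWAT. Notch3 (mean 42.5 CPM in SWAT and 13.2 in EWAT), Kcnj8 (2.65 and 0.34) and Cspg4 (3.73 and 2.11) were the 3 that were higher in SWAT. The 5 that were lower were Des, Rgs5 (3.14 and 7.19), Mcam (1.27 and 6.83), Myh11 (4.45 and 25.4) and Acta2 (2.70 and 7.10). The 7 macrophage and leukocyte markers summed to 33 to 35.4 CPM in EWAT, 16.6 to 25.2 in SWAT and 22 to 22.6 in NWAT. In this list 4 were lower and 0 higher in SWAT than in EWAT, or 57.1% against 36.7% of all genes tested. In EWAT 4 were higher and 0 lower than in NWAT, or 57.1% against 27.3%. Lyz2 had means of 8.5 CPM in EWAT, 1.76 in SWAT and 2.18 in NWAT, whereas Cd68 and Cd14 did not pass in any pair. Ptprc, the pan-leukocyte gene CD45, was at most 0.85 CPM. The 5 adipocyte markers summed to 23.9 to 29.1 CPM in EWAT, 14.8 to 15.3 in SWAT and 15 to 16.1 in NWAT. Of 4 tested, 2 were lower and 0 higher in SWAT than in EWAT, or 50% against 36.7% of all genes tested. The mesothelial sum was almost all Wt1, at means of 156 CPM in EWAT and 121 in NWAT and 0 counts in both SWAT libraries. Of the 6 mesothelial markers, 5 were lower in SWAT than in EWAT and 1, the epithelial keratin gene Krt19, was higher. These are 100% of the list, against 36.7% of all genes tested. Krt19 was lowest in EWAT, with means of 0.71 CPM there, 3.15 in SWAT and 6.30 in NWAT. Examples in these lists were chosen after their values were seen. The part of these cells in the results was not tested.

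Angiopoietin genes were all lowest in NWAT. Angpt1, on chromosome 15 (42424667 to 42676977, minus strand), stood at 58.5 and 57 CPM in SWAT, 45.4 and 49.3 in EWAT and 10.9 and 12.5 in NWAT. It was 4.94-fold higher in SWAT than in NWAT, a log2 fold change of 2.31 ± 0.11 (edgeR adjusted p = 1.37e-07), and 4.06-fold higher in EWAT than in NWAT, 2.02 ± 0.11 (edgeR adjusted p = 2.76e-07). The step between SWAT and EWAT, 0.28 ± 0.10 (edgeR adjusted p = 0.0497), lay at the threshold. It was lost without SWAT replicate 1 (0.27), SWAT replicate 2 (0.31), EWAT replicate 1 (0.23), NWAT replicate 1 (0.28) or NWAT replicate 2 (0.28). The call was also lost in DESeq2 (0.297, adjusted p = 0.0975), with the replicate number as a block (0.287, adjusted p = 0.0542) and with the 2 depots fitted alone (0.287, adjusted p = 0.0666), and on log2(FPKM + 1) values it was 0.00, or 0.17 relative to the median gene. Angpt1 shares 737 exon bases with the antisense gene Gm17473 in GENCODE M21, which the count table does not list separately.

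Angpt2 was scarce and fell in steps from SWAT to EWAT to NWAT. The gene lies inside an intron of Mcph1 on the other strand, on chromosome 8 from 18690263 to 18741562, with 0 shared exon bases. Its levels were 2.14 and 1.85 CPM in SWAT, 0.75 and 0.72 in EWAT and 0.24 and 0.19 in NWAT, from 38.9, 34.9, 15.6, 16, 5.28 and 4.02 estimated reads. The log2 fold change was 3.17 ± 0.43 for SWAT against NWAT (edgeR adjusted p = 3.27e-04), 1.43 ± 0.35 for SWAT against EWAT (edgeR adjusted p = 0.00809) and 1.73 ± 0.49 for EWAT against NWAT (edgeR adjusted p = 0.0219). The middle value lost its call without SWAT replicate 1 (1.33). The last lost its call without EWAT replicate 1 (1.71), EWAT replicate 2 (1.75), NWAT replicate 1 (1.89) or NWAT replicate 2 (1.60). It was also not called in DESeq2 (1.76) or on log2(FPKM + 1) values, where it was 0.19, or 0.15 relative to the median gene. The host gene Mcph1 stood at 5.65 to 8.01 CPM and did not pass the joint test (edgeR adjusted p = 0.243).

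Angpt4, a further ligand of TEK, had a wide spread within SWAT. The gene is on chromosome 2 from 151911207 to 151945337 on the plus strand. It stood at 2.36 and 5.17 CPM in SWAT, 3.41 and 3.19 in EWAT and 0.52 and 0.78 in NWAT, so the SWAT libraries lay on either side of EWAT and all 4 lay above NWAT. Against NWAT, SWAT was higher by 2.53 ± 0.41 (edgeR adjusted p = 0.00131), which fell to 1.85 without SWAT replicate 2 (adjusted p = 0.0119), and EWAT was higher by 2.33 ± 0.41 (edgeR adjusted p = 0.00167). SWAT against EWAT was 0.19, with a 95% interval of -0.54 to 0.93.

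The RNA ratio of agonist to antagonist was lowest in SWAT, and its difference between depots was not tested. The FPKM ratio of Angpt1 to Angpt2 was 24.1 and 27.3 in SWAT, 57 and 62.1 in EWAT and 40.3 and 54 in NWAT, where Angpt2 rested on under 6 reads per library. Blood endothelial markers had a summed level of 22.9 to 24 CPM in SWAT, 16.6 to 25.7 in EWAT and 13.9 to 14.4 in NWAT. This sum was also lowest in NWAT. Of the 8 markers 3 passed the joint test, against 41.7% of all genes tested. In SWAT against NWAT 25% of them passed, against 18.9% of all genes, and in EWAT against NWAT 25%, against 27.3%. The part of these markers in the angiopoietin differences was not tested.

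Tek, the receptor gene of the angiopoietins, was well expressed in these cells and highest in NWAT, the depot with the least Angpt1. It stood at 260 and 223 CPM in SWAT, 219 and 178 in EWAT and 355 and 334 in NWAT. On the FPKM scale Tek reached 43.8 to 79.6, while the endothelial genes Pecam1 and Cdh5 reached 0.84 to 2.88 and the related receptor Tie1 at most 0.51. EWAT was below NWAT by -0.80 ± 0.13 (edgeR adjusted p = 8.43e-04). SWAT was below NWAT by -0.51 ± 0.13 (edgeR adjusted p = 0.0164), and this call was lost without SWAT replicate 2 (-0.405), NWAT replicate 1 (-0.467) or NWAT replicate 2 (-0.553). Ptprb, the phosphatase that restrains TEK, was at 7.46 and 6.91 CPM in SWAT and 2.48 and 3.79 in NWAT, a log2 fold change of 1.196 ± 0.222 (edgeR adjusted p = 0.00269).

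Adm was lowest in SWAT and differed little between EWAT and NWAT. It is a short gene on chromosome 7 (110627657 to 110629820, plus strand). Levels were 83.9 and 81.5 CPM in SWAT, 128 and 122 in EWAT and 140 and 117 in NWAT, with both SWAT libraries below the other 4. SWAT was below EWAT by -0.60 ± 0.11, or 1.51-fold (edgeR adjusted p = 0.0016), and below NWAT by -0.63 ± 0.11, or 1.55-fold (edgeR adjusted p = 0.00192). The interval for EWAT against NWAT was -0.28 to 0.21.

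The adrenomedullin receptor genes did not follow the depot order of Adm, nor 1 common order. Calcrl, the receptor itself, stood at 98.8 and 83.7 CPM in SWAT, 37.9 and 30.8 in EWAT and 90.3 and 84.9 in NWAT, and it was higher in SWAT than in EWAT by 1.41 ± 0.13 (edgeR adjusted p = 5.53e-06) and lower in EWAT than in NWAT by -1.35 ± 0.13 (edgeR adjusted p = 1.31e-05). Ramp2, which makes CALCRL an adrenomedullin receptor, had the depot order of Vegfa. It was at 130 and 112 CPM in SWAT, 61.8 and 73.6 in EWAT and 91.6 and 96.1 in NWAT. SWAT exceeded EWAT by 0.84 ± 0.12 (edgeR adjusted p = 2.13e-04). The step from NWAT to SWAT, 0.37 ± 0.12 (edgeR adjusted p = 0.0489), was lost with the replicate number as a block (0.368). EWAT was below NWAT by -0.47 ± 0.12 (edgeR adjusted p = 0.012), a call lost without NWAT replicate 1 (-0.504) or NWAT replicate 2 (-0.434). Ramp1, which turns CALCRL towards the peptide CGRP, was instead highest in EWAT, with 13.3 and 19 CPM against 6.25 and 3.64 in SWAT (-1.71 ± 0.26, edgeR adjusted p = 7.12e-04) and 2.1 and 1.46 in NWAT (3.18 ± 0.30 for EWAT against NWAT, edgeR adjusted p = 3.42e-05). Ramp3 had at most 0.11 CPM and was not tested. Ackr3, a scavenger receptor of adrenomedullin and CXCL12, reached 727 to 1345 CPM and was lower in EWAT than in NWAT by -0.83 ± 0.15 (edgeR adjusted p = 0.00152).

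Angptl2 was the most abundant of the 10 genes by FPKM in SWAT, and its order of depots was that of Vegfa. It lies on chromosome 2 (33215951 to 33247725, plus strand) inside an intron of Ralgps1 on the other strand, with 0 shared exon bases. Levels were 492 and 525 CPM in SWAT, 244 and 237 in EWAT and 323 and 305 in NWAT, with no overlap between depots. SWAT exceeded EWAT by 1.08 ± 0.11, or 2.12-fold (edgeR adjusted p = 1.41e-05), and NWAT by 0.70 ± 0.11, or 1.62-fold (edgeR adjusted p = 8.2e-04). EWAT was below NWAT by -0.39 ± 0.11 (edgeR adjusted p = 0.0208), a call lost without EWAT replicate 2 (-0.37), NWAT replicate 1 (-0.35) or NWAT replicate 2 (-0.42). Ralgps1 stood at 12.9 to 18.5 CPM. Of the ANGPTL2 receptor genes, Itga5 was at 150 and 159 CPM in SWAT and 242 and 235 in EWAT (-0.63 ± 0.12, edgeR adjusted p = 0.00229), and Pirb, at most 0.51 CPM, was not tested.

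**Figure D3:**
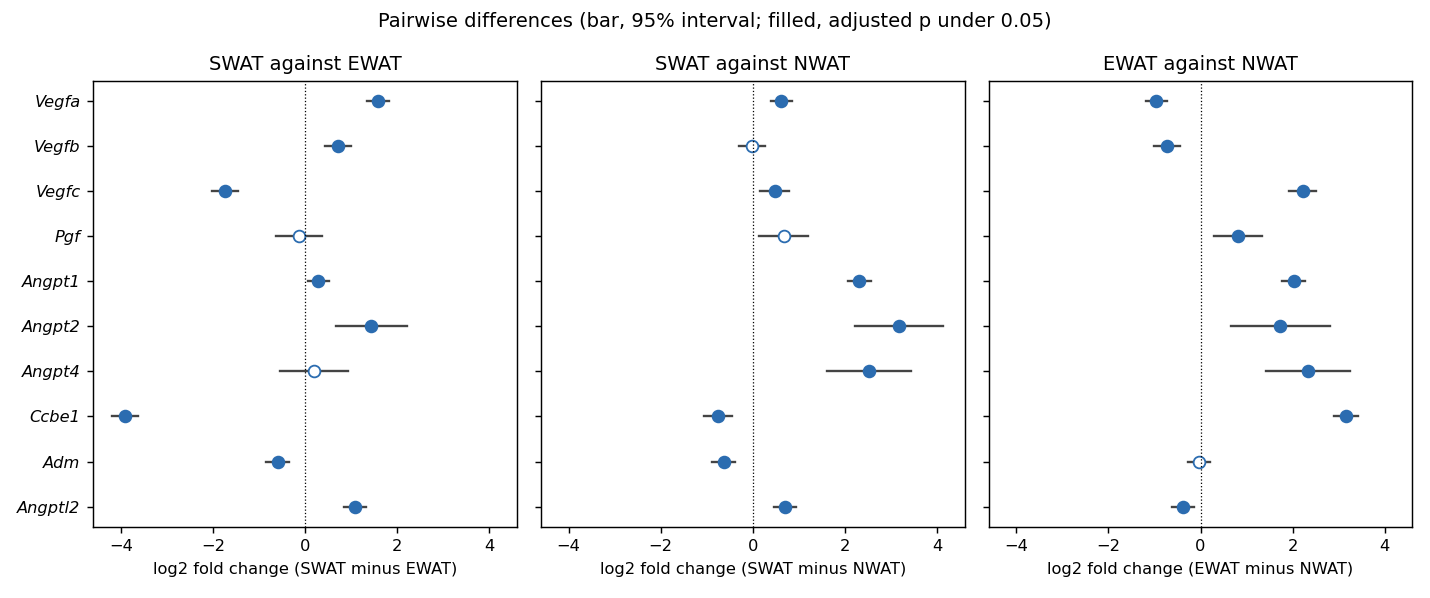
Points give the log2 fold change of each of the 10 genes in the 3 pairs of depots, with bars for the 95% interval and filled points for an edgeR adjusted p under 0.05. Ccbe1 lies farthest from 0 in SWAT against EWAT (-3.92), and the 3 angiopoietin genes lie at 1.73 to 2.33 in EWAT against NWAT.

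Receptors for VEGF ligands were scarce apart from the neuropilins. By FPKM, Flt1 and Kdr stayed at or under 0.72 in every library, while Nrp1 reached 24.8 to 32.8 and Nrp2 1.96 to 7.06. Nrp2, the neuropilin that binds VEGF-C, was lower in SWAT, with 14.2 and 17.6 CPM against 42.1 and 29.7 in EWAT (-1.17 ± 0.17, edgeR adjusted p = 3.48e-04) and 34.5 and 33.6 in NWAT (-1.10 ± 0.17, edgeR adjusted p = 0.00104). Itgb1 and Itga9, which code for integrin subunits, had 504 to 650 and 74.9 to 113 CPM. Of the 16 receptor genes 14 were tested, with 5 higher and 5 lower in SWAT against EWAT, 4 and 4 in SWAT against NWAT, and 1 higher and 4 lower in EWAT against NWAT. These are 71.4%, 57.1% and 35.7% of the list, against 36.7%, 18.9% and 27.3% of all genes tested. Their median log2 fold changes were 0.27, -0.03 and 0.04, beside -0.01, -0.02 and 0.01 for all genes tested.

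**Figure D4:**
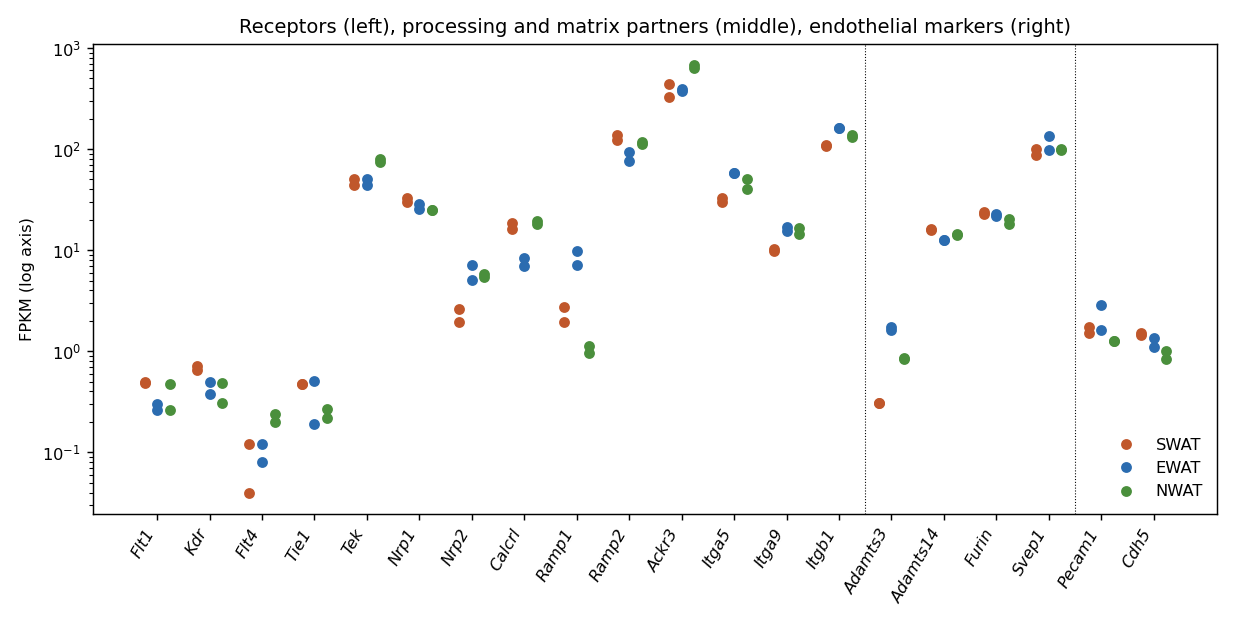
Points give the FPKM of receptor, processing and endothelial marker genes in each library on a log axis, coloured by depot. Tek and Nrp1 lie at 24.8 to 79.6 FPKM in all libraries, while Flt1, Kdr, Flt4 and Tie1 stay under 1 and Adamts3 is highest in EWAT (1.62 and 1.74).

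Genes for processing enzymes, matrix partners and inhibitors of angiogenesis changed in both directions. Of 16 tested, 9 were higher and 4 lower in SWAT against EWAT, 9 and 4 against NWAT, and 1 was higher and 3 lower in EWAT against NWAT, with median log2 fold changes of 0.52, 0.40 and 0.12. These are 81.2%, 81.2% and 25% of the list, against 36.7%, 18.9% and 27.3% of all genes tested. The 5 with the widest range included Adamts3 and Ptprb, described above. Thbs1, which codes for the antiangiogenic matrix protein thrombospondin-1, was lower in SWAT than in EWAT (-3.09 ± 0.17, edgeR adjusted p = 1.05e-07) and NWAT (-2.81 ± 0.17, edgeR adjusted p = 7.57e-07). Its relative Thbs2 was higher in SWAT than in EWAT (2.37 ± 0.12, edgeR adjusted p = 5.77e-08) and lower in EWAT than in NWAT (-1.81 ± 0.12, edgeR adjusted p = 9.74e-07). Sparc, a collagen-binding matricellular gene, was higher in SWAT than in EWAT (1.09 ± 0.12) and NWAT (1.19 ± 0.12), each with an edgeR adjusted p of 3.26e-05.

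Further secreted angiogenic factors included genes called in each direction. Among 18 tested of a list of 23 symbols, 5 were higher and 3 lower in SWAT against EWAT, 5 and 6 in SWAT against NWAT, and 3 and 5 in EWAT against NWAT. These are 44.4%, 61.1% and 44.4% of the list, against 36.7%, 18.9% and 27.3% of all genes tested, and the median log2 fold changes were 0.16, -0.08 and -0.08. Fgf1, a fibroblast growth factor, was at 3.51 and 4.91 CPM in SWAT, 48.2 and 53.4 in EWAT and 61.8 and 57 in NWAT, lower in SWAT by -3.59 ± 0.15 and -3.81 ± 0.15 (edgeR adjusted p = 1.29e-08 and 2.7e-08). Apln, the vascular peptide apelin, was at 4.77 and 5.22 CPM in SWAT, 38.3 and 46.2 in EWAT and 18.6 and 20.6 in NWAT, the depot order of Adamts3. Angptl1, an angiopoietin-like gene, was at 39.1 and 41.3 CPM in SWAT, 10.8 and 12 in EWAT and 48.4 and 56 in NWAT, and was lower in EWAT than in NWAT by -2.19 ± 0.12 (edgeR adjusted p = 2.13e-07). Pdgfc was higher in SWAT than in EWAT by 1.35 ± 0.13 (edgeR adjusted p = 1.07e-05), and Fgf2 was lower in EWAT than in NWAT by -1.195 ± 0.158 (edgeR adjusted p = 1.8e-04).

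Genes of the hypoxia system were called in both directions and, in 2 of the 3 comparisons, near or below the share of all genes. Of 19 genes tested, 4 were higher and 5 lower in SWAT against EWAT, 2 and 2 in SWAT against NWAT, and 3 were higher and 1 lower in EWAT against NWAT, with median log2 fold changes of 0.01, 0.05 and -0.05. These are 47.4%, 21.1% and 21.1% of the list, against 36.7%, 18.9% and 27.3% of all genes tested. Hif1a, the oxygen-regulated subunit, did not pass in any pair and was at 119 to 148 CPM, chosen here after its values were seen. Epas1, its paralogue HIF-2 alpha, was higher in SWAT (0.93 ± 0.13, edgeR adjusted p = 4.7e-04) and EWAT (1.07 ± 0.13, edgeR adjusted p = 1.22e-04) than in NWAT. Bnip3, a mitophagy gene, was highest in EWAT, at 28 and 29.4 CPM against 13.5 and 11.9 in SWAT and 13.7 and 15.4 in NWAT. Ndrg1, a stress-response gene, was lower in SWAT than in EWAT by -0.98 ± 0.11 (edgeR adjusted p = 3.55e-05), as was Hif3a by -0.87 ± 0.19 (edgeR adjusted p = 0.00366), whereas P4ha2, a collagen prolyl hydroxylase, was higher by 1.13 ± 0.14 (edgeR adjusted p = 1.06e-04). Vegfa, a known target of this system, was lowest in EWAT, and Adm, another, was lowest in SWAT.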

How the data were processed

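The authors deposited estimated counts per gene symbol (31.7% to 33.1% not whole, per the file headers named read counts) and FPKM per gene symbol. Named without roles, per the submitters' processing notes, are Seurat, Cell Ranger and the build GRCm38.p6. For the aligner, counting program and strand setting, nothing is given in the sources used here. The tables each hold 2 columns with a letter that matches no label. These were left out, so the mesenteric depot and its planned comparisons are not analysed here. The other 6 columns were matched by depot letter and replicate number. Of 1 duplicated symbol the entry with the higher total was kept.

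Counts were rounded, filtered (filterByExpr, minimum count 10, total 15), TMM-scaled and fitted in edgeR 4.0.16 (R 4.3.3) with 1 coefficient per depot over 6 libraries. Standard errors were derived from the F statistic, and intervals are 95%. The common biological coefficient of variation was 9.79%. Alternatives used RLE factors, DESeq2 1.42.0, other filters, a replicate block, single libraries left out, pairs fitted alone, and limma 3.58.1 on log2(FPKM + 1) and log2(FPKM + 0.1). On data simulated for SWAT against EWAT (13510 genes), the calls included 35 of 67 genes with a 1.5-fold change. They also included 58 of 67 with a 2-fold change and 66 of 66 with a 4-fold change, and 11 false ones. Far fewer genes were changed there than were called in the data, and scarce genes were left unchanged. These rates may therefore not carry over to the data or to genes as scarce as Angpt2.

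The members and lists were chosen with earlier results of these data known. The text names all members, every receptor gene and, from each other list, the 5 genes past the joint test with the widest range of depot means and a mean log2 CPM of at least 2. Chromosome positions come from RefSeq on GRCm38.p6 and overlaps from GENCODE M21.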

Additional observations from a re-analysis of the deposited data

How the results depend on the processing

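Of 25 pairwise calls of the 10 factors, 19 held under each of the 14 alternatives that gave them a value, and the other 6 are named above. Angpt2 gave no value with the stricter filter. Leaving out 1 library gave 4084 to 6882 genes in the joint test, 3085 to 5672 for SWAT against EWAT, 1467 to 3323 for SWAT against NWAT and 2129 to 4884 for EWAT against NWAT, where the fits on all 6 libraries gave 5714, 5020, 2588 and 3743. The numbers of the 10 factors called ranged over 9 to 10, 6 to 8, 7 to 8 and 6 to 9. The gene counts moved by over 1.5 times without SWAT replicate 1 (3211) or 2 (3085) for SWAT against EWAT, without SWAT replicate 1 (1588) or 2 (1467) or NWAT replicate 1 (1589) or 2 (1504) for SWAT against NWAT, and without EWAT replicate 2 (2475) or NWAT replicate 1 (2129) or 2 (2306) for EWAT against NWAT. Where a depot kept 1 library, that library was assumed to vary like the others.

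With a replicate block, 5743, 5043, 2595 and 3793 genes and 10, 7, 9 and 9 of the factors were called. The labels do not say that numbers pair the libraries, and the deviations of same-numbered libraries correlated over genes by 0.001 (SWAT and EWAT), 0.038 (SWAT and NWAT) and 0.11 (EWAT and NWAT).

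Signs changed in differences that had not passed. Over the fits that left out 1 library, the log2 fold changes of SWAT against EWAT ran from -0.485 to 0.151 for Pgf, -0.482 to 0.647 for Angpt4, -1.04 to 0.482 for Flt4 (0.294 without EWAT replicate 2) and -0.343 to 0.0347 for Epas1. Those of SWAT against NWAT ran from -0.078 to 0.0376 for Vegfb and -0.0645 to 0.175 for Calcrl. Those of EWAT against NWAT ran from -0.159 to 0.0995 for Adm, -0.158 to 0.457 for Kdr, -0.00489 to 0.198 for Nrp1, -0.195 to 0.302 for Nrp2, -0.385 to 1.01 for Tie1, -0.368 to 0.109 for P4ha2 and -0.112 to 0.0993 for Itga9, which was 0.000194 with no filter. On log2(FPKM + 1) and log2(FPKM + 0.1) values, signs changed for Angpt4 (-0.0777 and -0.139), Tek (-0.00333 and -0.0034) and Ackr3 (-0.0048 and -0.00484) for SWAT against EWAT, Calcrl (-0.127 and -0.133) for SWAT against NWAT, and Adm (0.0116 and 0.0118) and Itga9 (0.0606 and 0.0641) for EWAT against NWAT. The cause was not tested. Depth limits Angpt2, Angpt4 and Pgf, whose counts ran from 4.02 to 131.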

Other observations

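The genes whose log2 CPM, centred over the 6 libraries, lay nearest to each factor were listed as a description, with the Euclidean distance as the measure. Nearest to Vegfa were Prrx1, a mesenchymal homeobox gene (distance 0.189), and Arsi (0.206). Prrx1 stood at 663, 235 and 451 CPM in SWAT, EWAT and NWAT. Nearest to Ccbe1 were the collagen IV gene Col4a6 (0.456), at 8.14, 101 and 15.4 CPM, and Npr3, the natriuretic peptide clearance receptor (0.60), at 1.66, 18.4 and 2.67 CPM. Vegfc lay nearest to Neurl1b (0.376) and Zfp385b (0.392), and Adm to Cebpb, an early adipogenic transcription factor (0.059), at 217, 332 and 340 CPM, and Phactr1 (0.155).

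Ednra, the endothelin A receptor gene, was the nearest gene to both Angpt1 (0.181) and Angpt4 (0.819), at 7.77, 7.14 and 1.66 CPM. The next were Ism1 for Angpt1 (0.518) and Pde11a for Angpt4 (0.844). Angpt2 lay nearest to Icosl (0.615) and Galnt5 (0.663), Angptl2 to Ntrk2 (0.096) and Aebp1 (0.107), Vegfb to Lmnb1 (0.08) and Prkag2 (0.091), and Pgf to Pank1 (0.268) and Hlf (0.317). With 6 libraries in 3 depots, many genes share any one order of depots.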
